A study of Rattus norvegicus with 16 samples.

Results

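Cdkn1a, the gene of the cell cycle inhibitor p21, was followed as 1 gene among the 23918 identifiers listed for the aorta and kidney of adult rats. It was found by its Ensembl identifier, ENSRNOG00000000521. It was chosen by a measured value, since it ranked among the genes with the smallest p-values between the hyperoxia and room air (RA) aortas. The RNA came from wild type male Sprague-Dawley rats aged 1 year. Hyperoxia-exposed rats had breathed 85% oxygen from postnatal day 1 to day 14 and then recovered in RA, and control rats had breathed RA throughout. Each tissue was represented by 4 RA and 4 hyperoxia libraries, and the hyperoxia-exposed rats were those that had survived the exposure and the recovery. RNA was taken from the aortic arch and thoracic aorta, or from kidney tissue, selected by polyA tail and sequenced in bulk. In bulk RNA, fewer cells of a type and less RNA per cell cannot be told apart.

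The protein p21 binds complexes of cyclins with cyclin-dependent kinases and holds cells in the cell cycle before DNA synthesis. It also binds PCNA, the sliding clamp of DNA replication. Its gene is a classic target of the tumour suppressor p53 after DNA damage, is also induced through other routes by growth inhibitory and stress signals, and is a widely used marker of cellular senescence. The neighbouring protein-coding genes in the RefSeq annotation of assembly GRCr8 are Srsf3, which encodes a splicing factor, and Rab44, which encodes a small GTPase, and 0 annotated genes overlap Cdkn1a there.

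The sequence upstream of the annotated start is shown because transcription factor motifs were looked for there and nowhere else in the gene. The 250 bases before the RefSeq start, chr20:7150682-7150931 on the plus strand of GRCr8, are printed with the p53 half-site, the 10-base motif to which a pair of p53 molecules binds, in capitals.
Cdkn1a: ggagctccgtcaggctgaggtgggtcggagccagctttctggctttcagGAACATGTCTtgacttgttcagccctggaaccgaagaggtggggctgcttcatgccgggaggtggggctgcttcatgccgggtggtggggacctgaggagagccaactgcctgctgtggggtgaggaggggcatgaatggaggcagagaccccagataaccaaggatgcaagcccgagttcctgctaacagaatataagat
The window held 1 exact match to the p53 half-site, between 201 and 192 bases before the start. The bases directly after it, tgacttgttc, depart from the motif only at the first base. Only exact matches were counted. Of the 27457 RefSeq promoters of this length, 6.56% held at least 1 such half-site on either strand. The GC box GGGCGG, the E-box CACGTG and the TATA box TATAAA had 0 matches on either strand of this window, and 32.4%, 5.79% and 13.1% of all promoters held them. The window precedes 1 annotated start, so motifs before any other start of the gene were not looked for. RefSeq lists 4 transcripts of Cdkn1a, and the counts are summed over transcripts, so they do not tell which start was used. The counts were made on genome build rn6.0, and p53 binding was not measured.

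Cdkn1a RNA was 2.21 times as abundant in the hyperoxia aortas as in the RA aortas by the group means, and the libraries of the groups did not overlap. Levels are given in CPM, the estimated count of the gene divided by the total of its library and multiplied by 1000000. In the RA aortas, replicates 1 to 4 stood at 72.1, 52.98, 61.6 and 90.4 CPM. In the hyperoxia aortas, replicates 1 to 4 stood at 161.6, 188.6, 116.0 and 145.9 CPM. The lowest hyperoxia aorta lay 1.28 times above the highest RA aorta. The RA aortas averaged 69.3 ± 16.1 CPM (SD, n = 4), and the hyperoxia aortas averaged 153.0 ± 30.4 CPM (SD, n = 4). Over all aorta genes tested, 0.908% likewise had every hyperoxia library above every RA library. Since Cdkn1a was chosen on this contrast, its difference in the aorta is a description and no test is drawn from it.

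**Figure D1:**
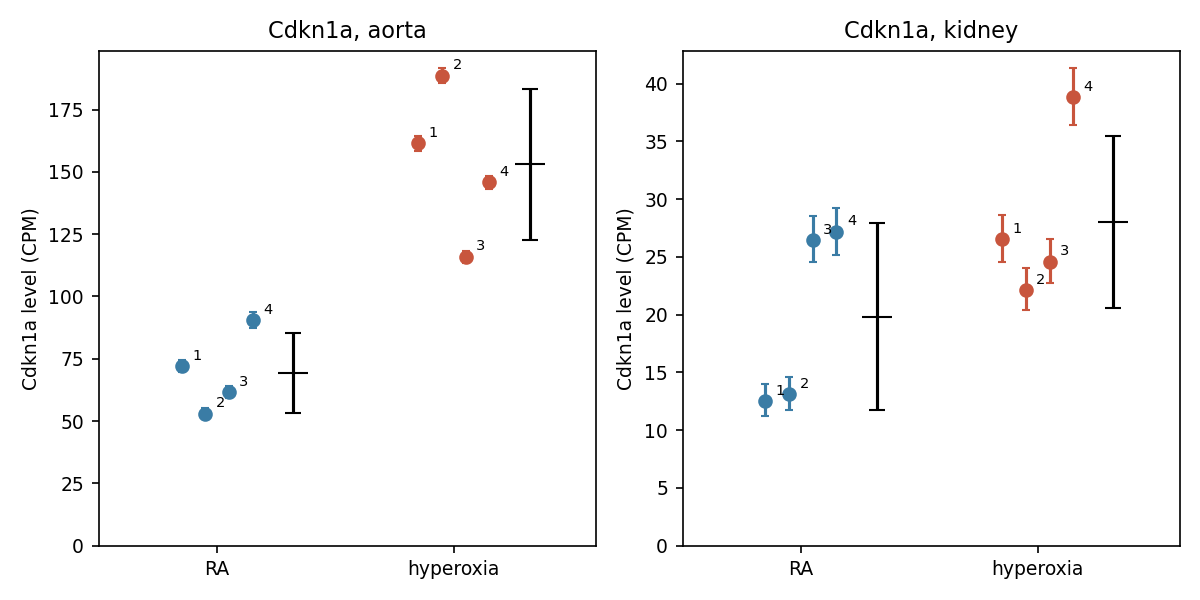
Cdkn1a level in CPM (vertical axis, from 0, on a different scale in each panel) in the 4 RA and 4 hyperoxia libraries of the aorta (left) and the kidney (right). Points are libraries numbered by replicate, with 95% exact binomial intervals for counting error, and the black bars are the group mean ± SD. The hyperoxia aortas, at 116.0 to 188.6 CPM, all lie above the RA aortas, at 52.98 to 90.4 CPM, whereas the kidney groups overlap.

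Scaling for composition drew the aortas of a group closer together. With trimmed mean of M-values (TMM) normalization, which scales each library so that most genes do not change between libraries, the RA aortas stood at 81.0, 63.4, 55.4 and 79.3 CPM and the hyperoxia aortas at 168.1, 163.6, 121.5 and 145.9 CPM, in order of replicate. On this scale the lowest hyperoxia aorta lay 1.499 times above the highest RA aorta. The coefficient of variation fell from 23.3% to 17.8% in RA and from 19.8% to 14.1% in hyperoxia. In the kidneys it rose, from 40.8% to 41.4% in RA and from 26.5% to 28.6% in hyperoxia.

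A fit across all 15086 aorta genes with edgeR's quasi-likelihood model gave Cdkn1a a log2 fold change of 1.10 (standard error 0.17), a fold change of 2.15. The median log2 fold change over all genes tested was −0.02, and 211 genes had a higher one than Cdkn1a. The value on which the gene was chosen placed it in rank 9 by p-value. The false discovery rate (FDR) behind that rank was 0.142 in edgeR, so 0 of 1 member was called at an FDR under 0.1 with a change of more than 25% either way. In the same fit 3 genes, or 0.0199% of those tested, met that rule. DESeq2, another model for counts and the tool that the study used, ranked Cdkn1a 12 with an FDR of 2.17e-06. DESeq2 called 170 genes by the same rule, or 1.28% of those it gave an FDR. The limma voom fit with quality weights gave an FDR of 0.0583. All these FDRs come from the libraries on which the gene was chosen. They describe that choice and are no test of the difference. The log2 fold change itself was 1.11 in DESeq2 and 1.20 in voom, so the tools differed in the call more than in the size of the difference.

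**Figure D2:**
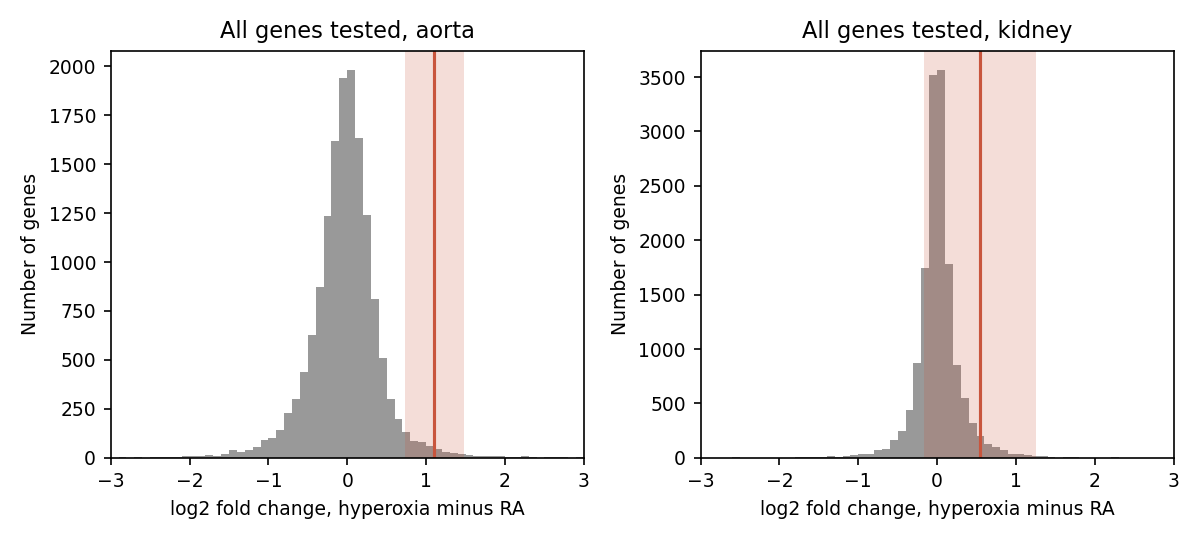
Number of genes tested (vertical axis) by log2 fold change of hyperoxia minus RA (horizontal axis, bins of 0.1) in the aorta (left) and the kidney (right), with Cdkn1a as a red line and its 95% interval from edgeR shaded. Cdkn1a lies at 1.10 in the aorta and at 0.55 in the kidney, where its interval includes 0, and 17 aorta genes and 9 kidney genes lie beyond the axis limits of ± 3.

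Sequencing depth followed exposure in the aorta. The library totals were 33611558 to 47021630 counts in the RA aortas and 68643331 to 83929128 in the hyperoxia aortas, without overlap, whereas all 8 kidneys had between 25031947 and 26521895. Within the RA aortas, the shallowest library, replicate 4, had the highest Cdkn1a level and the deepest, replicate 1, the next highest. Within the hyperoxia aortas, the deepest pair, replicates 2 and 4 with 83903842 and 83929128 counts, stood apart at 188.6 and 145.9 CPM. Depth and exposure cannot be told apart in the aorta. After all aorta libraries were thinned at random to the smallest total, which leaves the average CPM of a library where it was, the log2 fold change was 1.08 (standard error 0.17).

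In the kidney, which did not enter the choice of the gene, the mean Cdkn1a level was higher in hyperoxia, but the libraries overlapped and the difference was not called. The hyperoxia kidneys, replicates 1 to 4, stood at 26.6, 22.2, 24.6 and 38.8 CPM. The RA kidneys, replicates 1 to 4, stood at 12.5, 13.1, 26.5 and 27.2 CPM. RA replicates 1 and 2 therefore lay below all hyperoxia kidneys, while RA replicates 3 and 4 lay within the range of the hyperoxia kidneys. The RA kidneys averaged 19.8 ± 8.09 CPM (SD, n = 4), and the hyperoxia kidneys averaged 28.0 ± 7.42 CPM (SD, n = 4). A difference of 8.20 CPM or more was not rare among all reassignments of the libraries to groups (two-sided exact permutation test, p = 0.257, adjusted p = 0.257 over the 2 permutation tests run on this scale). With 4 libraries against 4, the smallest p that this test allows is 0.0286. The other permutation test set the RA aortas against the RA kidneys and is used here only in the adjustment. On the TMM scale the difference between the kidney groups was 9.02 CPM (two-sided exact permutation test, p = 0.171, adjusted p = 0.171).

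Over all 15069 kidney genes tested, edgeR gave Cdkn1a a log2 fold change of 0.55 (standard error 0.31, 95% interval −0.17 to 1.26, FDR 0.950 from the quasi-likelihood test). The interval includes no change and also the value of 1.10 measured in the aorta, so neither was set apart by these 8 kidneys. In the kidney, edgeR called 0 genes, or 0% of those tested. With unadjusted p-values 747 genes, or 4.96% of those tested, lay under 0.05. DESeq2 called 23 of the 15028 genes to which it gave an FDR. Cdkn1a stood in rank 1849 by p-value, and 579 genes had a higher log2 fold change. In 0.816% of the kidney genes every hyperoxia library lay above every RA library, and Cdkn1a was not among them.

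Single kidneys moved this value. Without hyperoxia replicate 4, the highest kidney, the log2 fold change was 0.35 (standard error 0.32), and without RA replicate 3 it was 0.76 (standard error 0.32). Without hyperoxia replicate 2, the lowest of the hyperoxia kidneys, it was 0.70 (standard error 0.32, FDR 0.539 from edgeR). The study left out 1 hyperoxia kidney that the sources used here do not identify, and all 4 are included above. In the 16 alternative fits of the kidney the log2 fold change stayed above 0, and the FDR stayed between 0.321 and 1.00.

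**Figure D3:**
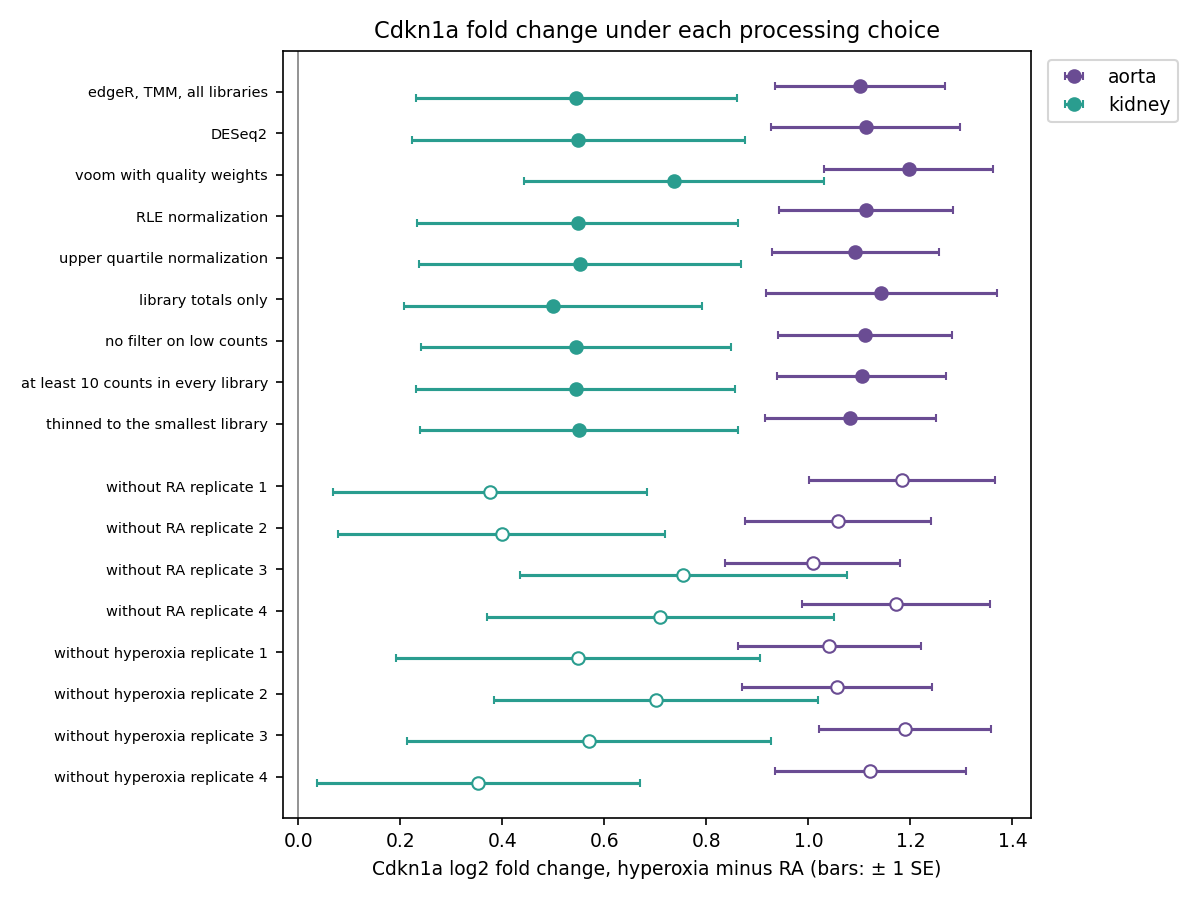
Log2 fold change of Cdkn1a, hyperoxia minus RA (horizontal axis, bars ± 1 standard error), in the aorta (purple) and the kidney (green) under each processing choice (rows). Filled points use all 8 libraries of a tissue and open points leave out 1. The aorta values lie between 1.008 and 1.20 and the kidney values between 0.35 and 0.76.

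Counting error was small against the spread between libraries. The Cdkn1a count ranged from 323 in RA kidney replicate 1 to 15826 in hyperoxia aorta replicate 2, which corresponds to counting errors of 5.56% and 0.795%. RA kidney replicates 1 and 3 had 95% exact binomial intervals of 11.2 to 14.0 CPM and 24.5 to 28.5 CPM, so the RA kidneys differed from each other by more than counting error. These intervals cover counting error only. The coefficient of variation of Cdkn1a across the RA kidneys was 40.8%, above that of 92.8% of kidney genes, whose median was 11.5%. In the hyperoxia kidneys it was 26.5%, above that of 65.1% of genes. In the RA and hyperoxia aortas the coefficients of 23.3% and 19.8% were above those of 37.3% and 49.9% of aorta genes.

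Cdkn1a RNA was more abundant in the aorta than in the kidney of RA rats. The range of 52.98 to 90.4 CPM in the RA aortas lay wholly above that of 12.5 to 27.2 CPM in the RA kidneys, and the ratio of the means was 3.49. Since the RA aortas entered the choice of the gene, this difference too is a description, and no result is drawn from its permutation test. In edgeR's fit over 15366 genes in the 8 RA libraries, the log2 fold change of aorta over kidney was 1.98 (standard error 0.29). A tissue difference was common, since 69.3% of the genes were called between the RA aorta and the RA kidney. All RA aortas lay above all RA kidneys for 23.0% of the genes. With scaling by library totals only, the log2 fold change was 1.80 and the median of all genes moved to −0.18. The aorta and kidney libraries also differed in depth, so tissue and depth cannot be told apart.

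Ordered by mean level, the groups ran from the RA kidney over the hyperoxia kidney and the RA aorta to the hyperoxia aorta. The RA and hyperoxia kidneys were neighbours whose libraries overlapped and whose difference was not called. The highest hyperoxia kidney, at 38.8 CPM, lay below the lowest RA aorta, at 52.98 CPM.

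The hyperoxia effect was estimated in both tissues at once in an edgeR fit over all 16 libraries. The log2 fold change in the aorta minus that in the kidney was 0.60 (standard error 0.37). It is given without a test, because the aorta side of it chose the gene. It ranged from 0.40 without RA kidney replicate 3 to 0.79 without hyperoxia kidney replicate 4.

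The labels give 3 hyperoxia aortas and 3 hyperoxia kidneys the same library numbers, and whether these mark the same rats is not stated. Aorta replicate 2 shares its number with kidney replicate 1, and they stood at 188.6 and 26.6 CPM. Aorta replicate 3 and kidney replicate 2 stood at 116.0 and 22.2 CPM, and aorta replicate 4 and kidney replicate 3 at 145.9 and 24.6 CPM. The order of the 3 was thus the same in both tissues, which was not tested. The 95% counting intervals of kidney replicates 1, 2 and 3 were 24.6 to 28.6, 20.4 to 24.0 and 22.7 to 26.5 CPM. That of replicate 3 overlapped those of replicates 1 and 2, so its place in the kidney order lay within counting error. The ratio of aorta to kidney was 7.10, 5.23 and 5.93 in the order given.

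Genes with a pattern like that of Cdkn1a were ranked by Pearson's correlation of log2 CPM, as a description without a test. Over the 8 aorta libraries the closest was ENSRNOG00000009037, with r = 0.95, and the first 5 genes all had r of at least 0.94. Its level was 70.3 to 105.5 CPM in the RA aortas and 100.3 to 159.6 CPM in the hyperoxia aortas, which overlapped. Over the 8 kidneys the first 5 genes had r of 0.93. The correlation within a tissue also contains the difference between the exposure groups. After the mean of each group was subtracted over all 16 libraries, the closest gene was ENSRNOG00000047891, with r = 0.87, at levels of 0 to 1.06 CPM. Such low counts make the value of this r uncertain. Of the first 5 genes, leaving out 1 library kept 0 to 2 in the aorta, 0 to 2 in the kidney and 1 to 5 over the 16 libraries.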

How the data were processed

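RNA from 16 libraries was compared, 4 in each combination of tissue and exposure. Per the labels and the study's methods, paired-end reads were quantified by kallisto (build rn6.0) and gene totals made by tximport. The values the authors deposited are expected counts, that is, estimated counts that are not normalized. Tool versions and annotation release are not given in the sources used here. In each library 24.3% to 28.8% of the gene values were fractional, and counts were rounded before fitting. The fits used edgeR 4.0.16 under R 4.3.3 (TMM, filter on expression by group, quasi-likelihood test, Benjamini-Hochberg adjustment over all genes tested). Standard errors were derived from the F statistics. Single values were compared by exact permutation in scipy 1.17.1. Alternatives were DESeq2 1.42.0, limma 3.58.1 (voom), other scalings and filters, thinning, and leaving out each library. Fits were tested on simulated data. Total counts per library were 25031947 to 83929128.

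Cdkn1a, the tests and the gene lists were chosen with earlier results of these data known. Of the 23918 identifiers, 0 occur in the name table used here (GRCr8), so that of Cdkn1a could not be checked against it. The 16 lists of 179 pathway and marker genes therefore have no values, and the tissue labels were not checked against markers. Within a tissue, libraries correlated at 0.937 to 0.983 in log2 CPM, and between tissues at 0.593 to 0.664. Of all library pairs, 0 held identical values. The study's methods count 4 animals per group and organ, the labels name no animals, and p-values rest on the variation between these libraries. By rule, up to 5 genes most like Cdkn1a per library set were to be named. With no gene names, 1 identifier each is given for the aortas and for all 16 libraries. Protein sequences were not used here.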

Additional observations from a re-analysis of the deposited data

How the results depend on the processing

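Cdkn1a kept its direction in all 16 alternatives for the aorta, for the kidney and for the RA tissues. In the aorta the log2 fold change lay between 1.08 and 1.20 under the other tools, scalings and filters, and between 1.008 and 1.19 when 1 library was left out. The FDR of the aorta, which describes how the gene was chosen, was under 0.1 in 2 of the 16, DESeq2 and voom, and ranged from 2.17e-06 to 0.526. In the kidney the log2 fold change lay between 0.50 and 0.74 under the other tools, scalings and filters, and between 0.35 and 0.76 when 1 library was left out, with an FDR over 0.1 in all 16. The RA tissues differed by 1.80 to 2.20 on the log2 scale in all 16. The difference between the tissues in the hyperoxia effect was 0.57 with DESeq2 and 0.64 with library totals only. The closest genes changed with the correlation used, since Spearman's kept 1 of 5 in the aorta, 0 of 5 in the kidney and 4 of 5 over the 16 libraries. Other settings for the gene lists were not run, since no listed gene could be matched to an identifier. No paired analysis was possible because exposure groups of 1 tissue have no library number in common. Between the tissues, a replicate block on the 3 shared library numbers, chosen after seeing the data, gave a difference of 0.63 (standard error 0.36) in the hyperoxia effect. Depth was separate between the aorta groups, and 4 libraries a group set the precision of each value.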
